A study of Homo sapiens with 9 samples.

Results

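Tumors grown from adapted TBP3743 cells in C57BL/6 mice (adapted/B6 group) were compared with tumors grown from the original cells in B6129SF1 mice (original group). These are 6 of the 9 tumors sequenced, 3 in each group, and each tumor was taken from its own column of the expression table by the name the labels give it. The other 3 tumors grew from adapted cells in B6129SF1 mice (adapted/B6129SF1 group), and their values are given beside the others where they help to place a gene. TBP3743 is a mouse anaplastic thyroid cancer line from B6129SF1 mice that carried Braf V600E and a deletion of Trp53, both restricted to the thyroid, so every tumor shares these lesions. The adapted cells are a line kept from the largest tumors of serial subcutaneous passage through C57BL/6 mice, and passage round 3 was used. In each group 100000 cells were injected into the thyroid of female mice aged 6 weeks, and the tumors were harvested on day 14. Cell state and host strain changed together in this pair, and the C57BL/6 and B6129SF1 mice came from different suppliers, Orient Bio and the Jackson Laboratory. The share of each in a difference cannot be told apart from these 6 tumors. The labels number the tumors of a group as biological replicates, and the p-values measure the spread between these tumors.

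RNA came from whole tumors, so transcripts of the cancer cells and of host cells were measured together. In such samples fewer cells of a type and less RNA per cell cannot be told apart. The labels name the organism as human, but the genes have mouse symbols and the build named is mm10. The labelled cell type is a cancer epithelial cell. Across the 6 tumors the adhesion genes Epcam (0.0949 to 2.49 FPKM) and Cdh1, the E-cadherin gene (1.82 to 4.48), were low. Other epithelial transcripts were not. The keratin and epithelial junction list that holds both genes summed to 636 to 1052 FPKM in the original tumors. In the adapted/B6 tumors the sum was 389 to 432, and the keratin Krt8, given below, was an abundant member. FPKM (fragments per kilobase of transcript, scaled to the mapped fragments) are levels per length. The thyroid transcription factor genes Nkx2-1 (28.6 to 43.5 FPKM) and Hhex (20.4 to 34.9) were present in every tumor, while Pax8 did not exceed 1.61. Thyroglobulin (Tg) ranged from 0.0153 to 31.0 FPKM with no separation of the groups. Trp53 measured 9.69, 7.82 and 9.09 FPKM in the original tumors and 13.0, 7.14 and 11.2 in the adapted/B6 tumors, and since both groups carry the deletion this does not check the labels.

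The table held 17369 genes, and the 10056 with at least 1 FPKM in at least 3 of the 6 tumors were tested as log2(FPKM + 1) with limma and Benjamini-Hochberg adjustment. The pseudocount of 1 understates the change of weakly expressed genes. A gene was called differentially expressed (DEG) when the adjusted p was below 0.05 and the log2 fold change was beyond 1 in either direction. The standard error of a log2 fold change is written SE. The FPKM of a tumor summed to between 457983 and 536661, which is not a depth, and the depth of each tumor is unknown because the values are not counts. Skeletal muscle transcripts stood apart in adapted/B6 replicate 1, where 24 muscle genes took 1.48% of all FPKM, against 0.0163% to 0.0807% in the other 5 tumors. All 17 muscle genes tested had a positive log2 fold change (median 1.82) and 0 were DEGs. The counts of list members below were also taken with each tumor left out in turn, that tumor included.

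The adapted/B6 tumors had 284 genes higher (2.82% of those tested) and 76 lower (0.756%) than the original tumors, 3.58% in all. Without the fold threshold, 510 higher (5.07%) and 298 lower (2.96%) genes had an adjusted p below 0.05. For 0 of the DEGs did the tumors of the groups overlap, while among all genes tested every adapted/B6 tumor was above every original tumor for 14.7% and below for 18.2%. The median log2 fold change of all genes tested was -0.03. Cell cycle genes held 0 DEGs among 29 tested (median -0.08). Collagens (17 tested), endothelial genes (14), cytosolic ribosomal proteins (20) and respiratory chain genes (18) also held 0 DEGs, though 1 collagen gene was higher without adapted/B6 replicate 2. The higher DEGs were led by genes that interferon gamma induces and the lower DEGs by Akr1c18, whose protein inactivates progesterone. When each of the 6 tumors was left out in turn, the number higher ranged from 173 to 317 and the number lower from 38 to 100. The lowest counts came without adapted/B6 replicate 3, and without original replicate 3 there were 205 higher and 41 lower. The filter itself fixed part of the calls, since 50 of the 284 higher and 13 of the 76 lower DEGs passed it only through the group where they were high. Of the DEGs, 155 higher and 30 lower were called in all 6 of these fits.

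**Figure D1:**
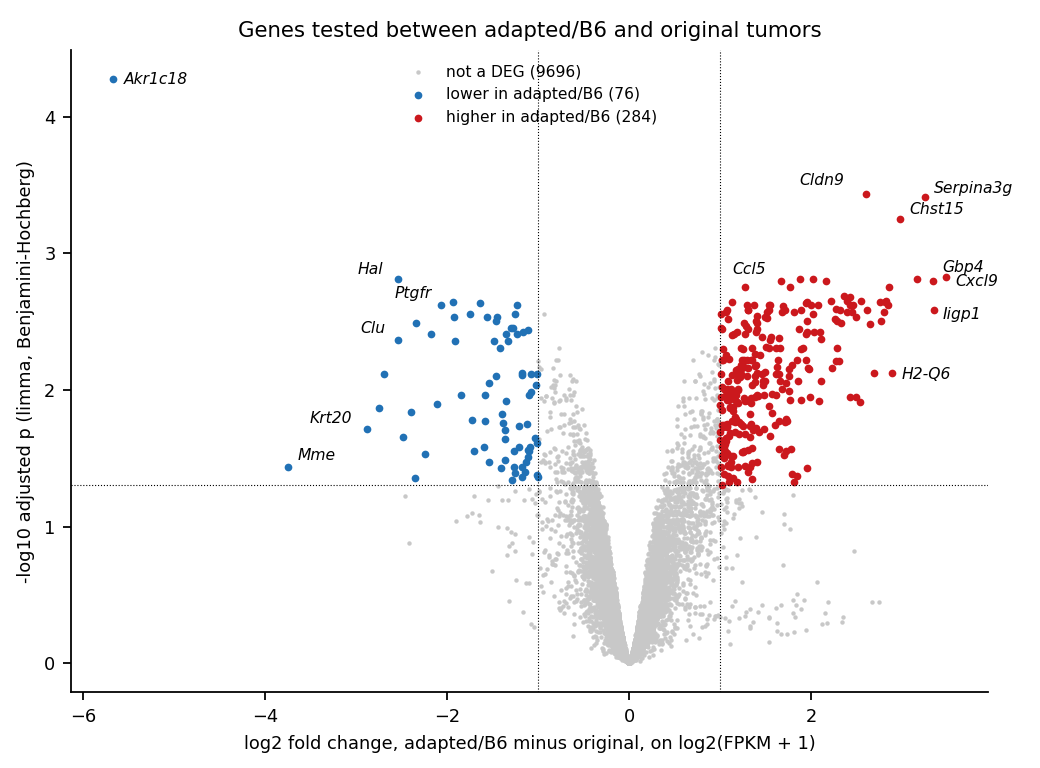
Each point is 1 of the 10056 genes tested, with the log2 fold change (adapted/B6 minus original, on log2(FPKM + 1)) on the x axis and the negative log10 of the limma adjusted p on the y axis. Dotted lines mark the thresholds, the 284 higher DEGs are red and the 76 lower DEGs are blue, and Akr1c18 stands alone at the upper left.

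Interferon gamma is released mainly by activated T cells and natural killer cells. Its receptor, made of Ifngr1 and Ifngr2 chains, acts through the kinases Jak1 and Jak2 to induce Irf1 and a wide set of effector genes. Among these are the class I major histocompatibility complex (MHC) that shows peptides to CD8+ T cells, the immunoproteasome and transporter that supply the peptides, GTPases of the guanylate-binding and immunity-related families that attack vacuoles of intracellular microbes, and chemokines that draw in T cells. In tumors such a program is read as a trace of T cell activity, though cancer cells and host cells both respond to it.

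Ifng, the ligand gene, was weakly expressed. It measured 0.216, 0.107 and 0.202 FPKM in the original tumors and 2.71, 1.45 and 2.72 in the adapted/B6 tumors. All 3 adapted/B6 tumors lay above the original tumors, and in the adapted/B6129SF1 tumors the values were 0.158, 1.504 and 0.524. Its log2 fold change was 1.46 (SE 0.20, limma adjusted p = 0.00770), and it entered the test through the adapted/B6 tumors alone. The receptor and kinase genes had log2 fold changes of 0.02 for Ifngr1, -0.07 for Ifngr2, 0.27 for Jak1 and 0.14 for Jak2, none of them a DEG. Downstream, the transcription factor gene Irf1 measured 39.7, 30.3 and 30.6 FPKM in the original tumors and 84.8, 82.4 and 117 in the adapted/B6 tumors. The groups did not overlap, and Irf1 rose by 1.46 (limma adjusted p = 0.00411). Irf8, a related factor of myeloid and lymphoid cells, rose from 8.71, 9.12 and 10.5 FPKM to 22.2, 18.1 and 29.8. Batf2, an interferon-induced transcription factor gene, went from 2.91, 1.62 and 2.15 FPKM to 17.8, 13.5 and 26.3, a log2 fold change of 2.62. The feedback inhibitor genes Socs1, Socs3 and Ptpn2 had log2 fold changes of 0.13, -0.21 and 0.12 and were not DEGs. Of the 12 signalling genes 5 were higher (41.7%, beside 2.82% of all genes tested), in the full comparison and with any tumor left out. Ifng is 1 of the 5, and the filter had fixed its direction. The fits with a tumor left out kept the same genes, so they do not check this.

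Both GTPase families rose throughout, with 9 of 9 guanylate-binding protein genes and 7 of 7 immunity-related GTPase genes among the DEGs. Their median log2 fold changes were 2.31 and 2.45, beside -0.03 for all genes tested. These counts were the same with any one tumor left out. Gbp4 measured 2.88, 1.64 and 1.83 FPKM in the original tumors and 24.8, 25.5 and 43.5 in the adapted/B6 tumors. The adapted/B6 mean was 14.8 times the original mean, and the log2 fold change was 3.34 (SE 0.25, limma adjusted p = 0.00159). Iigp1, which coats microbial vacuoles, was the most abundant of the immunity-related GTPases, at 37.3, 21.1 and 17.3 FPKM in the original tumors and 192, 236 and 360.0 in the adapted/B6 tumors. Its lowest adapted/B6 tumor was well above its highest original tumor, and it rose by 3.35 on the log2 scale (limma adjusted p = 0.00260). Gbp5, a partner of the inflammasome, rose from 4.83, 3.41 and 2.80 FPKM to 20.6, 22.4 and 29.5, and Igtp from 18.9, 15.6 and 10.7 to 67.4, 80.1 and 112. The regulatory members Irgm1 and Irgm2, which restrain the other immunity-related GTPases, rose as well, by 2.03 and 2.22. Gbp6 with Gbp10, and Tgtp1 with Tgtp2, are near-identical pairs whose reads may be split in counting, so their separate values are uncertain. Tgtp2 measured 5.03, 3.43 and 3.03 FPKM in the original tumors and 27.3, 31.2 and 44.4 in the adapted/B6 tumors, and Tgtp1 rose as well (2.65). Gbp10 passed the filter through the adapted/B6 tumors alone. In the adapted/B6129SF1 tumors Iigp1 was at 58.5, 146 and 128.9 FPKM and Gbp4 at 5.69, 16.8 and 15.9, and for both genes all 3 tumors lay between the other groups.

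Class I MHC genes were abundant in every tumor and rose together. Of 10 genes tested, B2m included, 9 were DEGs (median log2 fold change 1.33), and the remaining gene, H2-T24, had a log2 fold change of 0.87 (limma adjusted p = 0.0405). The number was 4 without original replicate 3 or without adapted/B6 replicate 3. B2m, the light chain shared by all class I molecules, was among the most abundant, at 2068, 1559.8 and 1818 FPKM in the original tumors and 3797, 4347 and 4873 in the adapted/B6 tumors. The groups were well apart, and B2m rose by 1.26 on the log2 scale (SE 0.20, limma adjusted p = 0.0114). Among the classical heavy chains H2-D1 measured 696, 550.2 and 585 FPKM and 1118, 1365 and 1506, a log2 fold change of 1.12. The nonclassical H2-Q genes had the largest log2 fold changes of the list. H2-Q6 rose from 13.5, 3.62 and 6.36 FPKM to 43.3, 69.8 and 63.9, a log2 fold change of 2.90 (SE 0.40), and its near-identical neighbour H2-Q7, with which it may share reads, from 27.1, 7.94 and 13.2 to 66.2, 96.9 and 95.5. H2-Q4 was 119, 56.2 and 65.2 FPKM in the original tumors and 245, 370.0 and 399.9 in the adapted/B6 tumors. H2-M3, which presents formylated bacterial peptides, was close within groups, at 8.73, 8.95 and 7.76 FPKM against 18.0, 18.1 and 20.6 (log2 fold change 1.07, SE 0.11, limma adjusted p = 0.00270).

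Within the peptide supply route 8 of 14 genes were higher (median 1.24). Psmb9, an immunoproteasome subunit that replaces a constitutive one, was at 24.6, 15.2 and 15.6 FPKM in the original tumors and 63.5, 79.9 and 87.4 in the adapted/B6 tumors. Tap1, a chain of the peptide transporter, was at 22.9, 12.8 and 15.2 and 55.8, 67.0 and 79.5. For both genes every adapted/B6 tumor was above every original tumor, with log2 fold changes of 2.02 and 1.96. Psmb8 (log2 fold change 1.91), Psmb10 (1.44), Tap2 (1.47), the tapasin gene Tapbp (1.26) and its relative Tapbpl (1.22) were also DEGs. Nlrc5, the transactivator of class I genes, rose from 6.79, 2.29 and 4.203 FPKM to 14.7, 18.9 and 20.7 (1.89, limma adjusted p = 0.0119). The proteasome activator genes Psme1 and Psme2 and the peptide-trimming gene Erap1 had log2 fold changes of 0.89, 0.81 and 0.98, under the fold threshold. The general chaperones Calr, Canx and Pdia3 had log2 fold changes of 0.09, -0.05 and 0.09.

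The class II MHC genes, which antigen-presenting cells use to show peptides to CD4+ T cells, held 0 DEGs among 7 tested (median 0.79). H2-Ab1 measured 95.4, 68.6 and 112 FPKM in the original tumors and 248, 118 and 196 in the adapted/B6 tumors. Adapted/B6 replicate 2 stood just above the highest original tumor and the other pair clearly higher, and the difference was not past the threshold (log2 fold change 0.98, limma adjusted p = 0.0847). In the adapted/B6129SF1 tumors H2-Ab1 reached 248, 738 and 662 FPKM. Ciita, the class II transactivator, followed the same order, with 1.12, 0.749 and 0.971 FPKM, 2.34, 1.63 and 2.33 and, in the adapted/B6129SF1 group, 2.60, 7.47 and 5.20 (adapted/B6 against original, limma adjusted p = 0.0519). Without adapted/B6 replicate 2 there were 4 class II DEGs.

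**Figure D2:**
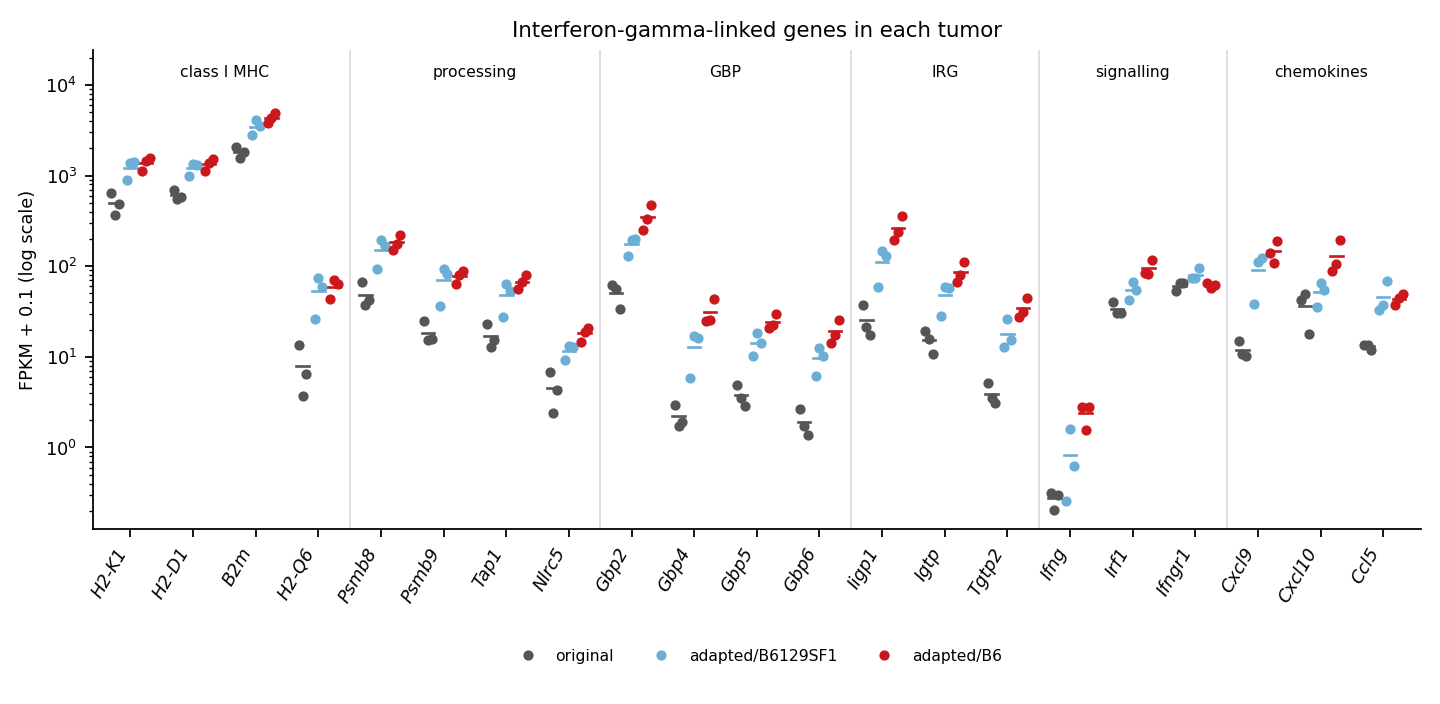
Each point is a tumor and each short bar a group mean, in FPKM + 0.1 on a log axis, for class I MHC, peptide processing, guanylate-binding protein (GBP), immunity-related GTPase (IRG), signalling and chemokine genes. The adapted/B6 tumors (red) lie above the original tumors (grey) for each gene shown except Ifngr1, and the adapted/B6129SF1 tumors (blue) are shown for reference.

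Cxcl9, a chemokine induced by interferon gamma that draws T cells through the receptor Cxcr3, had the largest rise among genes with a mean of at least 5 FPKM in the higher group. It was at 15.0, 10.7 and 10.1 FPKM in the original tumors and 140.0, 108 and 188 in the adapted/B6 tumors. The lowest adapted/B6 tumor was far above the highest original tumor. The ratio of means was 12.2, and the log2 fold change 3.49 (SE 0.22, limma adjusted p = 0.00149). Ccl5, which attracts T cells, was tighter within groups, at 13.3, 13.6 and 11.9 FPKM and 37.1, 44.5 and 48.8, and rose by 1.67 (limma adjusted p = 0.00159). Cxcl10, which shares its receptor with Cxcl9, varied more, with 41.8, 49.8 and 17.7 FPKM in the original tumors and 87.4, 107 and 196 in the adapted/B6 tumors. It passed the threshold narrowly (log2 fold change 1.84, limma adjusted p = 0.0428) and was called in 2 of the 6 fits with a tumor left out. Of the other chemokines, the macrophage inflammatory protein genes Ccl3 and Ccl4 rose by 1.03 and 1.52 (called in 2 and 6 of these fits), and the monocyte attractants Ccl2, Ccl7 and Ccl12 had log2 fold changes of 0.38, 0.19 and 0.41. Ccl4 measured 3.18, 2.52 and 3.38 FPKM in the original tumors, 12.1, 8.59 and 11.1 in the adapted/B6 tumors and 1.66, 6.82 and 2.67 in the adapted/B6129SF1 tumors. The 4 neutrophil attractants tested, among them Cxcl1, all had negative log2 fold changes (median -0.55) and 0 were DEGs.

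Genes that type I interferons induce mostly had positive log2 fold changes (22 of 23 tested, median 1.01), but differed in how clearly the groups separated. Of the 23, 7 were higher (30.4%, beside 2.82% of all genes tested) and 16 were not DEGs. Every adapted/B6 tumor was above every original tumor for 16, beside 14.7% of all genes tested. The filter had let in 1 of the 23 through the adapted/B6 tumors alone. Zbp1, a sensor of nucleic acids, rose from 17.7, 9.19 and 10.3 FPKM to 45.1, 54.2 and 86.7 (log2 fold change 2.23), and Oasl2 from 12.1, 5.66 and 5.78 to 23.3, 34.5 and 42.2 (1.99). Ifit1, Ifit2 and Ifit3, which block viral translation, overlapped between groups. Ifit1 was at 10.3, 11.3 and 5.40 FPKM in the original tumors and 7.71, 19.3 and 20.5 in the adapted/B6 tumors, Ifit3 at 11.9, 19.4 and 5.93 and 7.59, 19.4 and 19.7, and Ifit2 at 19.7, 19.8 and 15.8 and 10.2, 16.9 and 18.3. Adapted/B6 replicate 1 was the lowest of its group for all of these. Without that tumor 14 of the 23 genes were higher, and without original replicate 3 or adapted/B6 replicate 3 there were 2.

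Lymphocyte transcripts were scarce in the original tumors. The T cell receptor complex and its coreceptors had 17 genes in the table, and for 15 of these every adapted/B6 tumor was above every original tumor. Among the 10056 genes tested this held for 14.7%. The 17 include genes below the filter, and the share over all genes in the table was not taken. Summed without Thy1, which other cells also make, the list came to 11.4, 7.84 and 11.7 FPKM in the original tumors and 52.6, 35.5 and 43.8 in the adapted/B6 tumors. The sums did not overlap, and in the adapted/B6129SF1 tumors they were 13.6, 52.9 and 48.5. Among the 13 genes tested 11 were DEGs (median 1.23), but 8 of the 13 had passed the filter through the adapted/B6 tumors alone, so the count does not stand as support. Cd3g, a chain of the receptor complex, was at 1.17, 0.967 and 1.04 FPKM in the original tumors and 8.61, 5.53 and 7.02 in the adapted/B6 tumors. All adapted/B6 tumors were higher, and Cd3g rose by 1.95 on the log2 scale (SE 0.17, limma adjusted p = 0.00228). The CD8 chains Cd8a and Cd8b1 rose by the same 1.64. Cd8b1 was at 0.816, 0.206 and 0.167 FPKM in the original tumors and 4.26, 2.76 and 2.95 in the adapted/B6 tumors. The helper coreceptor gene Cd4 was at 0.351, 0.401 and 0.951 and 2.14, 1.63 and 1.58, a log2 fold change of 0.84 (limma adjusted p = 0.0416), under the fold threshold. Both Cd8b1 and Cd4 had passed the filter through the adapted/B6 tumors alone, which fixed their directions. Lck, the kinase bound to both coreceptors, rose by 1.23, the adaptor Lat by 1.13 and the costimulator Icos by 1.05. With 8 of the 13 genes let in by the adapted/B6 tumors alone, the directions of Cd8a, Lck, Lat and Icos are not taken as support.

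Among cytotoxic and natural killer cell genes 8 of 12 tested were higher (66.7%, beside 2.82% of all genes tested, median 1.05). Of these 12 genes 4 had passed the filter through the adapted/B6 tumors alone. The count was 5 without adapted/B6 replicate 1 or original replicate 2, 4 without original replicate 3, and 2 without adapted/B6 replicate 3. Nkg7, a granule protein of killer lymphocytes, was at 2.91, 1.44 and 2.66 FPKM in the original tumors and 12.6, 8.38 and 14.8 in the adapted/B6 tumors. The groups did not overlap, and Nkg7 rose by 1.95 (limma adjusted p = 0.00601). The granzymes, proteases of the killing granule, differed among themselves. Gzma rose from 2.88, 1.51 and 1.38 FPKM to 7.36, 8.29 and 8.51 (1.66). Gzmb measured 7.01, 3.22 and 11.2 FPKM in the original tumors, 44.2, 28.7 and 46.8 in the adapted/B6 tumors and 8.89, 9.71 and 13.2 in the adapted/B6129SF1 tumors. The adapted/B6 tumors were above all the others, but Gzmb was not a DEG between the adapted groups in a model of all 9 tumors. Gzmc overlapped, at 20.6, 8.37 and 32.3 and 31.0, 17.3 and 44.3. Perforin (Prf1), the pore protein of the granule, overlapped too, at 4.44, 1.11 and 5.23 FPKM and 7.13, 3.75 and 5.62 (log2 fold change 0.61, limma adjusted p = 0.388). Ncr1, which marks natural killer cells, stayed below 1 FPKM in all 6 tumors, between 0.0847 and 0.512. B cell genes held 0 genes above the filter, with list sums of 0.674 to 1.08 FPKM in the original tumors and 1.70 to 2.08 in the adapted/B6 tumors.

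Receptors and ligands that restrain T cells included 3 DEGs among 15 tested, all higher (20%, beside 2.82% of all genes tested). Besides Cd274 and Lag3, Tnfrsf14, the receptor for the inhibitory partner Btla, rose from 3.71, 1.95 and 2.47 FPKM to 9.55, 7.02 and 9.15 (log2 fold change 1.39, limma adjusted p = 0.00875). Cd274 measured 6.29, 4.75 and 3.70 FPKM in the original tumors and 14.5, 15.1 and 22.4 in the adapted/B6 tumors. Tigit, at 8.71, 3.996 and 11.8 and 8.11, 10.6 and 6.98, and its ligand gene Pvr, at 23.3, 15.7 and 29.6 and 15.8, 14.9 and 17.5, overlapped between groups. Cd47, the signal that restrains phagocytes, had a log2 fold change of 0.04. Of the TNF superfamily 3 of 13 tested were higher (23.1%), and 1 of the 13 had passed the filter through the adapted/B6 tumors alone. Tnfrsf9, a costimulator of activated T cells, was at 6.04, 5.03 and 6.38 FPKM in the original tumors, 13.4, 18.8 and 14 in the adapted/B6 tumors and 8.08, 7.08 and 4.30 in the adapted/B6129SF1 tumors. The adapted/B6 tumors exceeded all the others, and against the original tumors Tnfrsf9 rose by 1.26 (limma adjusted p = 0.00505). Between the adapted groups it was not a DEG in the model of all 9 tumors. The B cell survival factor gene Tnfsf13b rose by 1.35 and Tnfrsf18, a receptor of regulatory and activated T cells, by 1.03.

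Macrophage transcripts were abundant in every tumor, and most did not pass the test. Of 18 macrophage and monocyte genes tested 1 was a DEG (Ly6c2, log2 fold change 1.35, called in 1 of the 6 fits with a tumor left out), and the median was 0.16. The list sum ranged from 2889 to 3662 FPKM in the original tumors and from 2657 to 4935 in the adapted/B6 tumors. C1qa, a complement gene of tissue macrophages, measured 352, 541 and 453 FPKM in the original tumors and 766, 324 and 709 in the adapted/B6 tumors. Adapted/B6 replicate 2 was the lowest of all 6 tumors for C1qa and for Csf1r, the receptor that macrophages depend on (95.2, 43.8 and 89.2 in the adapted/B6 tumors against 59.9, 65.1 and 69.2). Among 12 general leukocyte genes 1 was a DEG (Cd52, 1.14, called in 1 of these fits), with a list sum of 466 to 526 FPKM in the original tumors and 582 to 1048 in the adapted/B6 tumors. The general leukocyte sums moved in the same direction as the T cell genes, while the macrophage sums overlapped between groups. The part of either in the gene changes was not tested. Neutrophil genes held 0 DEGs among 4 tested. In the dendritic cell list Clec9a, a receptor for dead cells on cross-presenting dendritic cells, rose from 0.416, 0.154 and 0.236 FPKM to 2.99, 4.71 and 3.52 (log2 fold change 1.89, limma adjusted p = 0.00260), and Bst2, which interferons also induce, was the only other DEG of 8 tested. Of these 8 genes 3, Clec9a among them, had passed the filter through the adapted/B6 tumors alone, which fixed the direction of Clec9a. With a tumor left out and the same genes kept, Clec9a was called in 6 fits and Bst2 in 2. Xcr1 and Flt3, which help to define the same cells, stayed under 1 FPKM in every tumor.

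**Figure D3:**
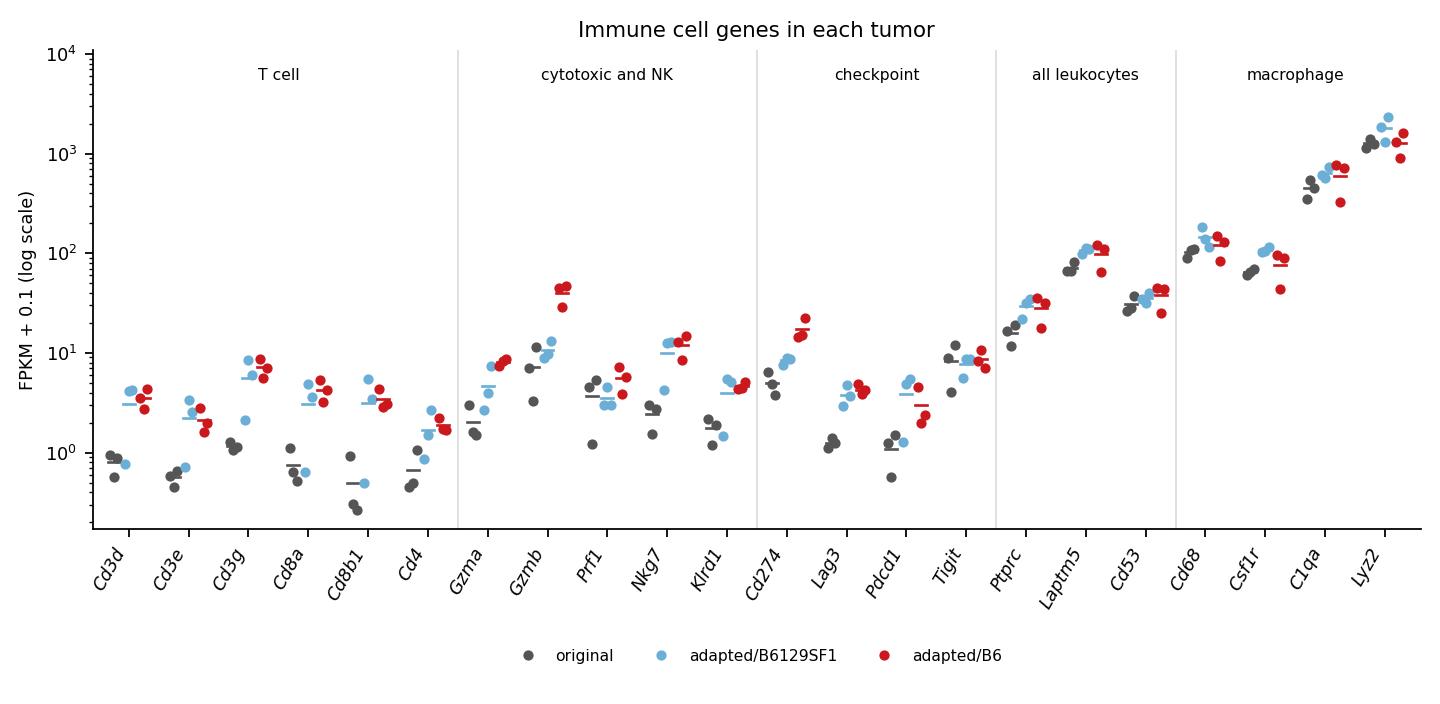
FPKM + 0.1 (log axis) of T cell, cytotoxic and natural killer (NK), checkpoint, general leukocyte and macrophage genes, with a point per tumor and a bar at each group mean. T cell genes separate the adapted/B6 tumors (red) from the original tumors (grey), while Prf1, Tigit and the macrophage genes overlap.

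Complement genes rose in part, with 4 of 8 tested (50%, beside 2.82% of all genes tested). Serping1, the inhibitor of the first complement protease, was at 13.0, 9.81 and 13.7 FPKM in the original tumors and 35.5, 34.5 and 41.2 in the adapted/B6 tumors. The groups were clearly apart, and Serping1 rose by 1.54 (SE 0.14, limma adjusted p = 0.00240). C3, the central component, went from 5.27, 4.67 and 7.71 FPKM to 29.6, 13.1 and 24.4, and factor B (Cfb) from 5.76, 3.40 and 4.12 to 20.0, 11.3 and 22.04. C4b rose by 1.31 but was called in 1 of the 6 fits with a tumor left out. Without original replicate 1 or adapted/B6 replicate 3, 2 complement genes were called.

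The serpins of the A3 cluster, protease inhibitors of inflammation, included some of the largest rises. Serpina3f was at 0.663, 0.498 and 0.434 FPKM in the original tumors and 10.8, 10.4 and 18.3 in the adapted/B6 tumors, and Serpina3g at 4.93, 3.83 and 3.08 and 41.3, 44.2 and 52.6. Neither gene overlapped between groups, though as close paralogs they may exchange reads, and Serpina3f passed the filter through the adapted/B6 tumors alone. The adjusted p from limma was 0.00153 for Serpina3f and 0.000387 for Serpina3g. The family member Serpina3n, an acute-phase gene, overlapped, at 3.96, 7.20 and 6.17 FPKM and 44.4, 3.41 and 10.2. Serpinb9, which protects cells from granzyme B, had a log2 fold change of 0.80, under the fold threshold. Serpinf1, a secreted inhibitor of vessel growth, rose by 1.34 from a high level (128, 249 and 145 FPKM to 404, 443 and 426).

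Several of the largest rises lay outside the interferon and leukocyte lists. Cldn9, a tight junction claudin, had the smallest adjusted p of any higher gene, with 0.693, 0.947 and 0.915 FPKM in the original tumors and 9.99, 9.86 and 10.9 in the adapted/B6 tumors. The tumors of each group were close together and the groups far apart (log2 fold change 2.60, SE 0.12, limma adjusted p = 0.000365). Chst15, which sulfates chondroitin chains, measured 0.777, 0.594 and 0.737 FPKM and 10.1, 15.2 and 12.4. Nsg1, a trafficking protein of neurons, rose from 4.89, 5.30 and 4.66 FPKM to 27.0, 60.3 and 44.8 (2.85), and in the adapted/B6129SF1 tumors it was at 30.9, 28.4 and 25.4. Myl9, a myosin light chain of smooth muscle and of contractile fibroblasts, rose from 6.88, 7.11 and 3.50 to 34.0, 45.3 and 59.6 (2.81), with adapted/B6 replicate 1, the tumor richest in skeletal muscle transcripts, the lowest of its group. Acta2, smooth muscle actin, was the sole DEG of 12 mesenchymal genes, from 15.8, 8.33 and 8.99 FPKM to 34.2, 41.7 and 47.4 (1.85). Of these 12 genes, 7 had positive and 5 negative log2 fold changes (median 0.27). The groups were apart for 4 higher and 4 lower genes, beside 14.7% higher and 18.2% lower of all genes tested. Their summed level was lower in every adapted/B6 tumor, at 8595 to 10388 FPKM against 10955 to 18897 in the original tumors. The most abundant genes weigh most in such a sum, so it does not show a fall of the list as a whole. Apol6, of the apolipoprotein L family, went from 0.900, 0.628 and 0.438 FPKM to 9.16, 8.36 and 15.6 (2.82). Cldn9, Chst15 and Apol6 were below 1 FPKM in every original tumor and passed the filter through the adapted/B6 tumors alone. In the adapted/B6129SF1 tumors Cldn9 was at 8.58, 10.7 and 5.15 FPKM and Chst15 at 13.3, 7.72 and 9.44. Myl9 was at 28.8, 29.9 and 38.9, and for all 3 genes these tumors were above every original tumor.

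The growth and vessel lists were short. In the EGFR family and VEGF lists 12.5% of the genes were higher, 1 of 8 in each. Of all genes tested 2.82% were higher and 0.756% lower. Egfr was the only DEG of 8 EGFR family receptor and ligand genes, with 6.18, 4.35 and 4.13 FPKM in the original tumors and 13.7, 25.05 and 13.8 in the adapted/B6 tumors. Its ligand genes pointed both ways, with log2 fold changes of -1.10 for Areg, -1.04 for Ereg, -0.89 for Hbegf and 0.91 for Btc, none of them DEGs. Without original replicate 2, 3 genes of this family were lower, and without original replicate 3 Egfr was not called. Vegfc, the ligand for lymphatic vessel growth, rose from 1.80, 1.24 and 1.74 FPKM to 5.97, 7.37 and 5.62 (ratio of means 3.96, limma adjusted p = 0.00293), while Vegfa overlapped, at 34.9, 42.2 and 48.6 and 36.9, 50.6 and 44.7. Among 18 genes that report ERK pathway output 1 was lower, the feedback inhibitor Spry4 (20.8, 15.0 and 28.6 FPKM to 11.4, 7.70 and 5.92, called in 2 of the 6 fits with a tumor left out). Without original replicate 2, 3 of these genes were lower. Egr1, an immediate early gene of that pathway, measured 40.4, 26.7 and 92.6 FPKM and 20.4, 10.7 and 11.3 and missed the threshold (log2 fold change -1.71, limma adjusted p = 0.0599). Of 16 P53 target genes Phlda3 rose by 1.05 and Pmaip1, which encodes the apoptosis protein Noxa, fell by 1.55 on the log2 scale, called in 2 and 1 of these fits.

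**Figure D4:**
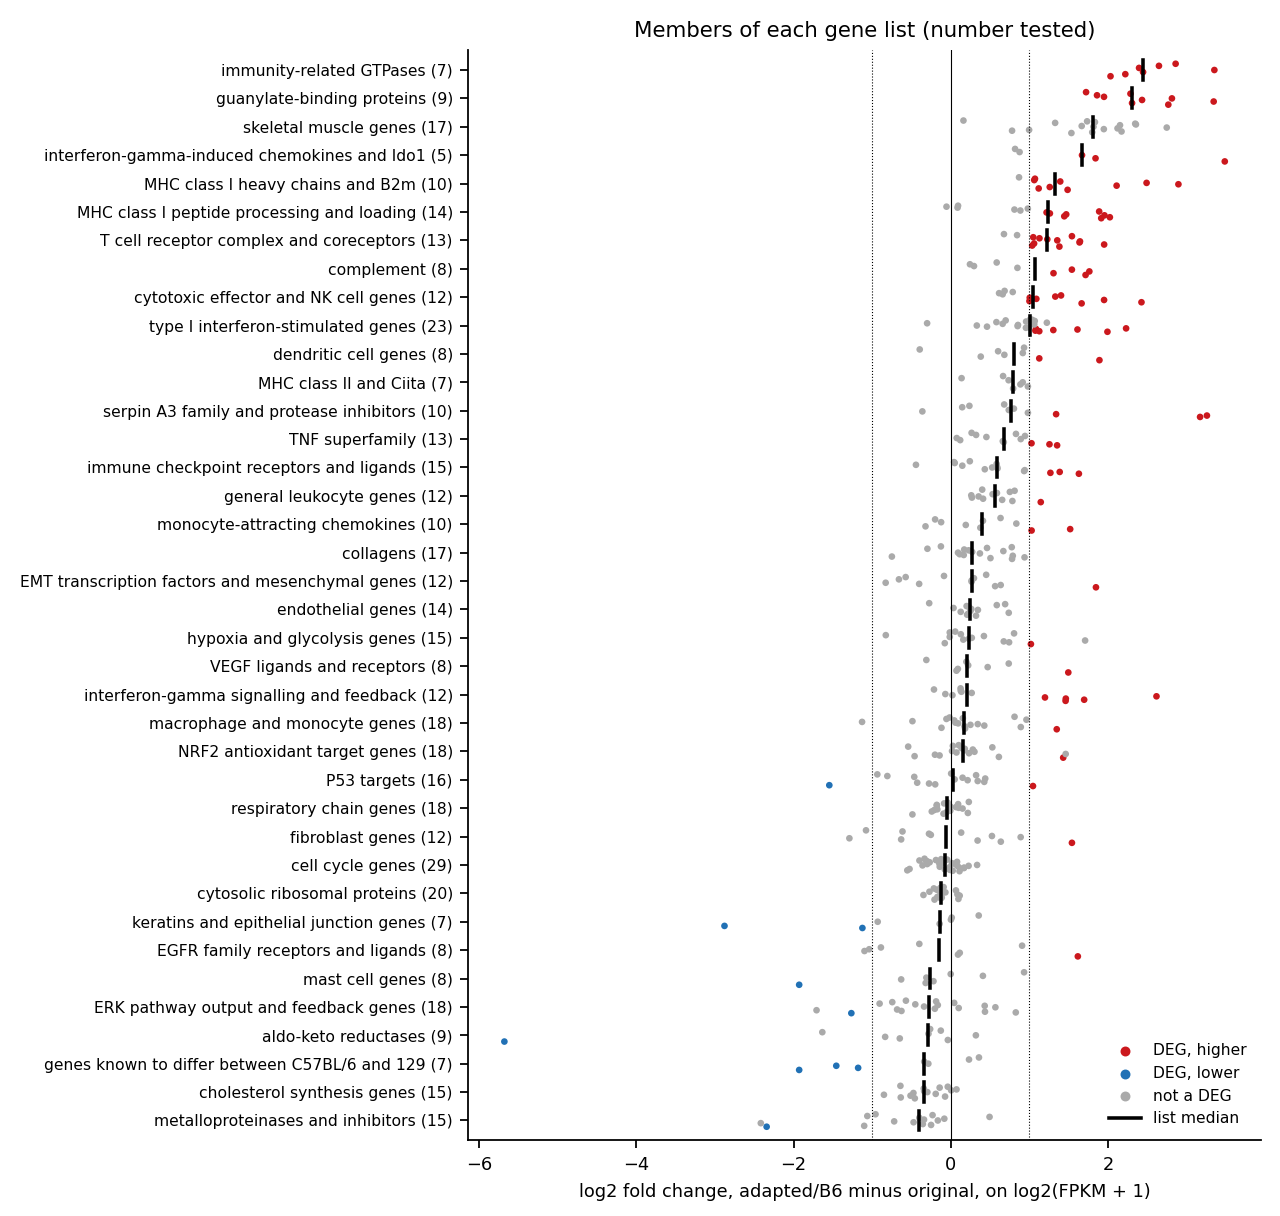
Log2 fold change (adapted/B6 minus original, on log2(FPKM + 1)) of every tested member of each gene list, with the number tested in brackets and the list median as a black bar. The immunity-related GTPases (median 2.45) and guanylate-binding proteins (2.31) have the largest medians, followed by the skeletal muscle list (1.82, 0 DEGs), and the lists at the foot of the plot have medians below 0.

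The largest fall was that of Akr1c18, the hydroxysteroid dehydrogenase gene that inactivates progesterone. It measured 208, 233 and 317 FPKM in the original tumors and 4.57, 4.09 and 3.08 in the adapted/B6 tumors. The original mean was 64.5 times the adapted/B6 mean, with no tumor in between, and the adapted/B6129SF1 tumors were also low, at 4.38, 5.68 and 0.501. Akr1c18 fell by 5.68 on the log2 scale (SE 0.18), with the smallest adjusted p of all genes (5.32e-05 from limma). It was the only DEG of 9 aldo-keto reductases tested. Its close relative Akr1c14 was at 1.25, 7.82 and 1.26 FPKM and 0.115, 0.196 and 0.126, with original replicate 2 far above the rest and all adapted/B6 tumors under 1 FPKM (log2 fold change -1.63, limma adjusted p = 0.0930), and Akr1b8 had a log2 fold change of -0.83.

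Some keratin and matrix genes fell as well. Krt20, a keratin of surface epithelia, was at 30.5, 57.3 and 80.8 FPKM in the original tumors and 13.9, 5.63 and 2.84 in the adapted/B6 tumors. Krt8, the abundant simple-epithelium keratin, was at 553, 363 and 615 and 222, 221 and 241, and fell by 1.12 on the log2 scale (limma adjusted p = 0.0178). Its partner Krt18 had a log2 fold change of -0.93 and was not a DEG (limma adjusted p = 0.0665). Both keratin calls (of 7 genes tested) were lost without original replicate 3, without adapted/B6 replicate 2 and without adapted/B6 replicate 3. Mmp2, a gelatinase that degrades basement membrane collagen, measured 78.4, 94.8 and 74.5 FPKM and 22.9, 10.6 and 14.9. Mmp2 was lower in every adapted/B6 tumor, fell by 2.34 (limma adjusted p = 0.00321), and was the sole DEG of 15 metalloproteinase and inhibitor genes, of which 14 had negative log2 fold changes (median -0.40). Without original replicate 1, 2 of them were lower, and without original replicate 2, 1 was higher. Clu, the secreted chaperone clusterin, fell from 159, 195 and 144 FPKM to 20.7, 46.2 and 21.7 (-2.54 on the log2 scale). Aspn, a small proteoglycan of the matrix, went from 27.6, 102 and 23.3 to 11.6, 5.38 and 5.70 and was called in 2 of the 6 fits with a tumor left out.

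Several signalling genes fell. Rgs16, which shortens G protein signals, was at 27.8, 12.9 and 55.6 FPKM in the original tumors and 4.01, 2.74 and 2.97 in the adapted/B6 tumors (log2 fold change -2.75, limma adjusted p = 0.0136). Slit3, a guidance ligand, fell from 14.2, 42.1 and 20.4 FPKM to 2.92, 1.88 and 3.61, and Gas1, a surface receptor for hedgehog ligands, from 42.9, 121 and 43.6 to 8.46, 14.7 and 10.03. In both, original replicate 2 was the highest tumor. Mme, the peptidase neprilysin, was also highest there, at 10.7, 118 and 12.6 FPKM against 0.509, 1.44 and 1.11, and was called in 2 of the 6 fits with a tumor left out (-3.75 on the log2 scale, SE 0.82, limma adjusted p = 0.0365). Pthlh, the hormone gene behind hypercalcemia of cancer, fell from 25.2, 8.26 and 35.9 FPKM to 2.83, 2.08 and 3.35 and was called in 2 of these fits. Ptgs2, the inducible prostaglandin synthase, went from 32.1, 10.9 and 43.3 FPKM to 3.39, 5.88 and 4.43 and was called in 1 of them. Ptgfr, the receptor for prostaglandin F, was far steadier, at 12.01, 15.2 and 16.5 FPKM in the original tumors and 3.50, 3.33 and 2.35 in the adapted/B6 tumors. Its groups did not overlap, and it fell by 1.94 on the log2 scale (SE 0.17, limma adjusted p = 0.00228).

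For a few genes that fell, the tumors in C57BL/6 hosts were below both groups of tumors in B6129SF1 hosts. Hal, the liver and skin enzyme that starts histidine breakdown, was at 5.47, 8.32 and 5.56 FPKM in the original tumors and 0.252, 0.241 and 0.276 in the adapted/B6 tumors. The adapted/B6129SF1 tumors, with the same cells as the adapted/B6 group in the other strain, were at 11.7, 3.43 and 13.3, so the adapted/B6 tumors were below all the others. Hal fell by 2.55 on the log2 scale (limma adjusted p = 0.00153). Hal, and Tpsab1 and Lilra6 below, were under 1 FPKM in every adapted/B6 tumor and passed the filter through the original tumors alone, so they had to be lower. Tpsab1, a mast cell tryptase gene, fell from 5.04, 3.998 and 6.84 FPKM to 0.618, 0.841 and 0.439, and the adapted/B6129SF1 tumors were at 6.46, 10.9 and 18.6. Of 8 mast cell genes tested Tpsab1 was lower and 0 were higher, with 1 higher without original replicate 1 or adapted/B6 replicate 1. The related tryptase gene Tpsb2 was at 6.05, 4.02 and 5.50 and 4.32, 5.02 and 2.77, and the protease gene Cpa3 at 4.401, 1.54 and 2.69 and 2.25, 2.36 and 1.39. Lilra6, a receptor gene of myeloid cells, fell from 3.19, 3.91 and 4.21 FPKM to 0.863, 0.564 and 0.777, with 6.73, 4.91 and 7.26 in the adapted/B6129SF1 tumors. In a model of all 9 tumors, 3 of the 10056 genes (0.0298%) were lower in the adapted/B6 than in the adapted/B6129SF1 group and 0 (0%) were higher. Tpsab1 (limma adjusted p = 0.0305) and Lilra6 (0.00525) were among the 3 with Gdpd3, and Hal was not (0.112). Hal was looked at in that model because of its values.

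**Figure D5:**
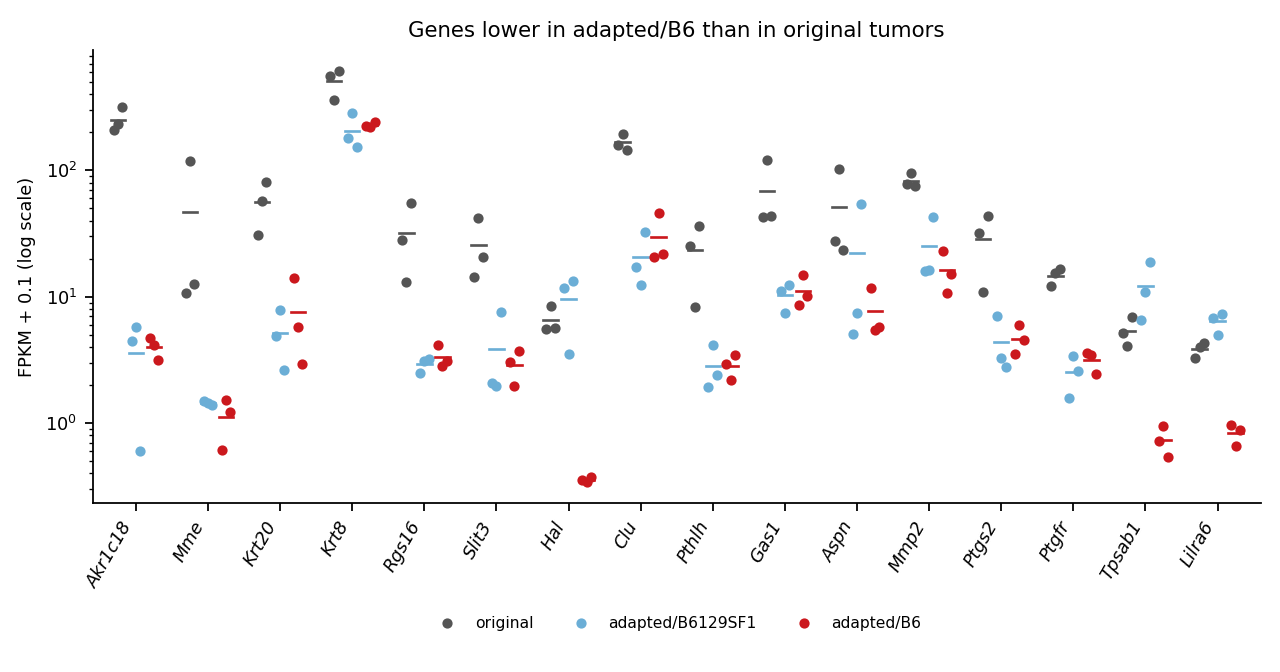
FPKM + 0.1 (log axis) of genes lower in the adapted/B6 group, with a point per tumor and a bar at each group mean. For Akr1c18 and most others the majority of adapted/B6129SF1 tumors (blue) lie near the adapted/B6 tumors (red), whereas for Hal, Tpsab1 and Lilra6 the adapted/B6 tumors lie below both other groups.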

How the data were processed

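RNA of whole orthotopic tumors was sequenced by the authors, 3 tumors in each of 3 groups. According to their processing notes and methods, reads were checked with FastQC, aligned to mm10 with HISAT2 and normalized with Cuffnorm, and the deposited values are FPKM for 17369 genes. The gene annotation, the scaling between tumors and any filter are not given in the sources used here. The authors tested reads with Cuffdiff, which needs reads, so log2(FPKM + 1) was tested here with limma 3.58.1 in R 4.3.3 (moderated two-sided tests with the variance trended on the mean) on 6 tumors, after a filter of at least 1 FPKM in 3 tumors. The procedure was tested on simulated data. Columns left unused numbered 0. Groups came from the labels.

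The comparison and the 44 gene lists were chosen with earlier results of these data known. Named genes were the 12 largest rises and 12 largest falls among DEGs whose groups did not overlap, with a higher group mean of at least 5 FPKM, the 3 smallest adjusted p in each direction, and up to 4 members of each list with those that define it. Further list members, and the genes of the closing section, were chosen after their values were seen. Means of single values were not tested, since 3 tumors against 3 cannot give an exact p below 0.1. Alternatives were other scalings, filters, pseudocounts, thresholds and variance models, all 9 tumors, a replicate block, and each tumor left out. A mouse genome was not used here, so no sequence or position is given, and some results are not reported here.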

Additional observations from a re-analysis of the deposited data

How the results depend on the processing

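The 284 higher and 76 lower DEGs became 253 and 73 with all 9 tumors in the model, 357 and 105 with a pseudocount of 0.1, 234 and 50 with no filter, 197 and 55 with at least 5 FPKM in 3 tumors, 289 and 73 with median-of-ratios scaling, and 249 and 95 with quantile normalization. An adjusted p under 0.05 with no fold threshold gave 510 and 298, and testing whether the change exceeded 1 on the log2 scale gave 18 and 2. The share of higher genes among the calls lay between 72.1% and 86.1% over the settings that kept both thresholds. A replicate block gave 289 and 75, of which 271 and 70 were called without it. Tumors that share a number are from different animals. The correlations of their deviations from the group means were 0.11, 0.31 and 0.07, against -0.24 to 0.19 for tumors of different numbers. The numbers were not taken to pair the tumors, and whether a shared number marks a batch is not known. Leaving out each tumor gave 173 to 317 higher and 38 to 100 lower, the lowest without adapted/B6 replicate 3. The cause was not tested. Of 177 named genes, 0 reversed direction as a called gene in the other fits. The fit with at least 5 FPKM in 3 tumors held 145 of them. Leaving out a tumor could not reverse a DEG, since the groups of every DEG were apart. Without adapted/B6 replicate 3, 31 named genes lost their call, and without original replicate 3, 25 did and 1 gained one. The named genes were not followed under the changed thresholds. Having 3 tumors a group limits the precision, and changes of genes near 1 FPKM could not be measured well.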

Other observations

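The gene groups that follow were put together after their values were seen, so their counts are descriptions of these tumors. Genes of the amino acid response, which cells induce when amino acids run short, held 8 higher DEGs and 1 lower among 40 tested (median log2 fold change 0.42, beside -0.03 for all genes tested), with 2 higher without adapted/B6 replicate 3, 3 without original replicate 3 and 4 without original replicate 1. Trib3, a pseudokinase of that response, measured 1.47, 1.24 and 2.06 FPKM in the original tumors and 6.34, 8.38 and 13.9 in the adapted/B6 tumors. Every adapted/B6 tumor was also above the adapted/B6129SF1 tumors, which were at 2.42, 3.03 and 1.73, and against the original group Trib3 rose by 1.97 (limma adjusted p = 0.00703). Asns, which makes asparagine, went from 16.8, 10.9 and 17.4 FPKM to 34.9, 33.0 and 57.8, with 13.6, 20.7 and 15.3 in the adapted/B6129SF1 tumors. Aldh1l2, a mitochondrial folate enzyme, went from 2.81, 1.43 and 2.52 to 8.63, 7.05 and 13.0, with 2.13, 3.97 and 2.92 in the adapted/B6129SF1 tumors. In the model of all 9 tumors 0 of the 10056 genes were higher in the adapted/B6 than in the adapted/B6129SF1 group. For Trib3, Asns and Aldh1l2 the limma adjusted p there was 0.298, 0.342 and 0.321. Wars, the tryptophan tRNA synthetase gene that interferon gamma also induces, rose by 1.17, and the cystine transporter gene Slc7a11 by 1.43. Stc2, also known as a member of this response, fell by 1.29 on the log2 scale and was called in 1 of the 6 fits with a tumor left out. Atf4, the transcription factor at the head of the response, had a log2 fold change of 0.08 (limma adjusted p = 0.710). In the adapted/B6 group replicate 3 was the highest tumor for Trib3, Asns and Aldh1l2.

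All 9 Hoxa genes tested had positive log2 fold changes (median 0.64) with 2 DEGs, and all 8 Hoxb genes had negative ones (median -0.44) with 0 DEGs. The shares over all genes tested were 2.82% higher and 0.756% lower. Genes of the Hoxc and Hoxd clusters were not counted. Hoxa10 was at 1.65, 1.63 and 1.29 FPKM in the original tumors and 10.3, 19.2 and 13.2 in the adapted/B6 tumors, and Hoxa9 at 1.23, 1.18 and 1.21 and 5.88, 12.5 and 8.09. Neither overlapped, and the adapted/B6129SF1 tumors had 19.9, 14.1 and 10.8 FPKM of Hoxa10. Hoxb6 ran the other way, at 21.6, 31.8 and 30.6 and 14.6, 18.5 and 15.5, without reaching the fold threshold (-0.74). Other transcription factor genes, picked singly for their values and not as a group, are given with no count. Gli2, a transcription factor of hedgehog signalling, rose from 0.155, 0.118 and 0.137 FPKM to 4.03, 4.95 and 3.41, Lef1, a partner of beta-catenin, from 0.808, 0.717 and 1.38 to 6.63, 6.37 and 8.88, and Isl1 from 4.14, 4.47 and 4.32 to 17.3, 20.2 and 14.4. Sox2, a stem cell factor, fell from 20.3, 23.6 and 31.5 FPKM to 7.70, 4.18 and 5.97 (log2 fold change -1.92, limma adjusted p = 0.00440), and Foxf2 from 3.61, 2.44 and 3.89 to 0.357, 0.224 and 0.228. Gli2 passed the filter through the adapted/B6 tumors alone and Foxf2 through the original tumors alone, which fixed their directions.

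Prostaglandin genes held 2 higher and 3 lower DEGs among 19 tested (median 0.01). Beside the falls of Ptgs2, Ptgfr and Akr1c18, the prostacyclin synthase gene Ptgis rose from 0.138, 0.183 and 0.314 FPKM to 3.87, 6.82 and 5.70 (2.39), and the prostaglandin transporter gene Slco2a1 from 4.97, 5.16 and 5.53 to 12.9, 12.4 and 12.6 (1.13). Ptgis, 1 of the 2 higher genes, passed the filter through the adapted/B6 tumors alone. The constitutive synthase Ptgs1 had a log2 fold change of -0.01. Of 5 claudins tested 2 were higher, both through the filter by the adapted/B6 tumors alone, and 1 was lower, with 0 lower without adapted/B6 replicate 3. Cldn6 went from 0.165, 0.0546 and 0.187 FPKM to 7.68, 4.02 and 4.56 and Cldn1 from 7.45, 6.37 and 5.28 to 1.16, 2.66 and 1.98. Of 10 neuronal cytoskeleton and axon genes tested 7 were higher and 1 was lower (median 1.32), with 3 of the 10 through the filter by the adapted/B6 tumors alone and 1 by the original tumors alone, so the counts do not stand as support. Dclk1, a kinase on microtubules, went from 3.86, 4.77 and 2.95 FPKM to 17.2, 29.2 and 22.1. Crmp1 went from 0.703, 0.247 and 0.463 to 5.22, 7.93 and 6.63 and Gap43, the lower gene, from 5.46, 2.90 and 5.45 to 0.467, 0.199 and 0, and both passed the filter through 1 group.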
